A study of Homo sapiens with 24 samples.

Results

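Expression of 10 integrin subunit genes was followed in AsPC-1 tumors after dosing with IK-595, a molecular glue that, per the labels, acts on MEK and RAF kinases. The genes are 5 alpha subunits (ITGA2, ITGA3, ITGA5, ITGA6, ITGAV) and 5 beta subunits (ITGB1, ITGB4, ITGB5, ITGB6, ITGB8), taken by symbol from a fixed list out of 60230 genes in the deposited table. ITGA2 and ITGA6 had been set apart in that list as ERK-dependent, and the other 8 served for comparison. The list was chosen with earlier results of these data known. AsPC-1 is a human pancreatic ductal adenocarcinoma line, grown here as xenografts in mice. All animals received 3 oral doses on alternate days, and the 6 groups held 4 animals each. The vehicle group received 5% DMSO with 95% PEG400 and was sampled 2 h after the last dose. The 5 other groups received IK-595 at 6 mg/kg and were sampled 2, 4, 8, 24 or 48 h after the last dose. Vehicle tumors exist at 2 h only, so for the later groups the drug and the time since dosing cannot be told apart. Every comparison with vehicle uses the same 4 vehicle tumors. The model is 1 cell line, and mouse host cells remain in each tumor.

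Integrins are transmembrane receptors that bind the extracellular matrix as pairs of 1 alpha and 1 beta chain. The beta chain ITGB1 pairs with ITGA2 to bind collagen, with ITGA3 or ITGA6 to bind laminin and with ITGA5 to bind fibronectin. ITGB4 pairs with ITGA6 alone and anchors epithelial cells to laminin in hemidesmosomes. ITGAV pairs with ITGB5, a vitronectin receptor, and with ITGB6 or ITGB8, which bind and activate latent TGF-beta. Integrins signal through focal adhesion proteins to the RAS-RAF-MEK-ERK cascade, the pathway that IK-595 is directed at.

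In GENCODE release 29 on GRCh38 all members are protein-coding, and values here are for whole genes. ITGA2 (ENSG00000164171.11) lies at chr5:52989326-53094779 on the plus strand, and ITGA6 (ENSG00000091409.16) at chr2:172427354-172506282, also plus. ITGB6 (ENSG00000115221.12) lies at chr2:160099666-160200313 on the minus strand. The laminin and fibronectin receptor chains ITGA3 and ITGA5 lie at chr17:50055968-50090481 (plus) and chr12:54395261-54419460 (minus), and ITGAV at chr2:186590065-186680901 (plus). The other beta chains are ITGB1 at chr10:32900319-33005792 (minus), ITGB4 at chr17:75721328-75757818 (plus), ITGB5 at chr3:124761948-124901418 (minus) and ITGB8 at chr7:20330702-20415754 (plus). The sequences below are the stretches from 250 to 51 bases before a transcript start of these genes, from the RefSeq promoter table (GRCh38.p14). They are shown because ITGA2 and ITGA6 had the largest fold changes of the members at 2 and 8 h and ITGB6 was the member called higher. Capitals mark matches, on either strand, to an ETS core (CCGGAAG), an AP-1 site (TGANTCA) or a GC box (GGGCGG). ETS and AP-1 proteins are well-known end points of ERK signaling.
ITGA2, chr5:52989102-52989301, plus strand: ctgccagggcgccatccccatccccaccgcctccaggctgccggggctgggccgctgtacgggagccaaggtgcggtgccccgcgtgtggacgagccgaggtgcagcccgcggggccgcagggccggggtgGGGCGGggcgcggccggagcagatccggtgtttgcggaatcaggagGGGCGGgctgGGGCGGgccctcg
ITGA6, chr2:172427086-172427285, plus strand: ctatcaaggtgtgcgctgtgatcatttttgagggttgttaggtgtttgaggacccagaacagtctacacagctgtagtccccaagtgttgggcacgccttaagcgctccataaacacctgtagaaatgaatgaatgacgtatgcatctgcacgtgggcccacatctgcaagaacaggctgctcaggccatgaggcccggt
ITGB6, chr2:160200323-160200522, minus strand: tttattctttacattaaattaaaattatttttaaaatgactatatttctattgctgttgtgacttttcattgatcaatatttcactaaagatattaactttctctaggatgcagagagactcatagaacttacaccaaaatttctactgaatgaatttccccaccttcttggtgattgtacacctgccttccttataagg

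The ITGA2 stretch held 3 GC boxes, and the printed ITGA6 and ITGB6 stretches held no match to any of the 3 motifs. A second ITGA6 start, 250 bases downstream, held 1 ETS core and 2 GC boxes. Of 13 starts listed for 8 members, 1 held the ETS core, none held the AP-1 letters and 7 held a GC box. Over all 35116 promoters of the table the shares in the same window were 5.13%, 5.27% and 35%. A match describes letters only, and a missing match says nothing about the factor. ITGA3 and ITGB4 had no entry matched.

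Depth ran from 10.52 to 20.64 M estimated counts per tumor. The action of the drug was checked on 10 MAPK output genes, whose mean log2 CPM (counts scaled to library size) was 6.52 ± 0.04 (SD, n = 4) in vehicle tumors. At 2, 4, 8, 24 and 48 h after IK-595 it was 4.11 ± 0.20, 2.96 ± 0.42, 2.74 ± 0.52, 5.56 ± 0.23 and 6.15 ± 0.18. All 11 carcinoma epithelium markers passed the filter on low counts. Their summed CPM was 9918 to 13008 in vehicle tumors and 8077 to 15126 from 2 to 24 h. At 48 h it was 13922 to 18533, above every vehicle tumor. Summed CPM of 15 fibroblast and pericyte markers was 907 to 5312 in 23 tumors and 31828 in 4 h tumor 2, the shallowest library. Muscle, fat and red cell markers summed to 63.7 to 231 CPM in vehicle tumors and to 231 CPM or more in every IK-595 tumor, with the highest sum, 3134 CPM, in 2 h tumor 1. Mitochondrial genes took 8.0 to 10.8% of counts in vehicle tumors and 18.27 to 23.42% at 8 h, the time of most integrin falls. The part of the muscle and mitochondrial shifts in the integrin values was not tested beyond leaving out mitochondrial genes and single tumors, and that of fibroblast markers only by a covariate and by leaving tumors out. In bulk tumors fewer cells of a type and less RNA per cell cannot be told apart.

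All 10 members passed the filter. Levels of different genes were compared in TPM, which is scaled for transcript length. In vehicle tumors ITGB1 (786 ± 133 TPM) and ITGB4 (609 ± 35 TPM) led, and their tumors overlapped. ITGA3 followed at 181 ± 3.99 TPM, ITGA6 at 158 ± 20.1 TPM and ITGB5 at 119 ± 13.3 TPM. ITGA3 overlapped with ITGA6 and ITGA6 with ITGB5. Then came ITGAV at 56.2 ± 9.39 TPM, ITGA2 at 47.3 ± 25.0 TPM and ITGB8 at 38.3 ± 6.05 TPM, neighbours that also overlapped. ITGA5 (14.3 ± 9.05 TPM) and ITGB6 (8.92 ± 0.604 TPM) were lowest and overlapped with each other (all SD, n = 4). Only 3 members, ITGA3, ITGA6 and ITGB5, held 1 rank in all 4 vehicle tumors.

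The order shifted with dosing. At 8 h ITGA6 had rank 7 by mean, at 19.6 ± 7.16 TPM, and ITGA2 was last at 2.23 ± 0.698 TPM (SD, n = 4). ITGA2 then overlapped with ITGA5 (3.66 ± 2.54 TPM), and ITGA6 overlapped with ITGB8 (20.6 ± 3.40 TPM). ITGB4 stood first at 2, 8, 24 and 48 h, but its tumors overlapped with those of ITGB1 at 8, 24 and 48 h. At 4 h ITGB1 (591 ± 121 TPM) stood above ITGB4 (305 ± 82.4 TPM) without overlap. Summed TPM of the 10 members was 2019 ± 169 in vehicle tumors, 753 ± 151 at 8 h and 1616 ± 324 at 48 h (SD, n = 4).

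**Figure D1:**
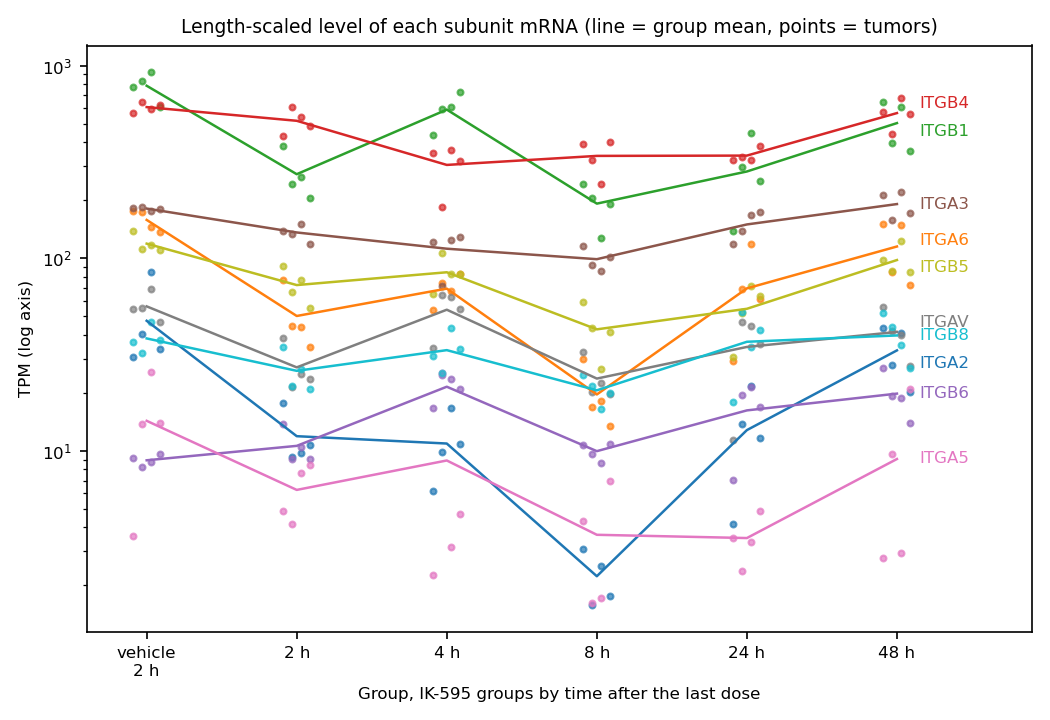
TPM of each integrin subunit gene (log axis) by group, with points for the 4 tumors of a group and lines joining group means. ITGA6 goes from rank 4 of 10 in vehicle tumors (158 TPM) to rank 7 at 8 h (19.6 TPM), and ITGA2 from rank 7 (47.3 TPM) to rank 10 (2.23 TPM).

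Against vehicle, members that fell outnumbered those that rose from 2 to 24 h. The members were chosen with earlier results of these data known, so their counts against all genes are no independent support. Rises and falls below are calls of the edgeR quasi-likelihood test at an adjusted p under 0.05, corrected over 18242 genes. At 2 h 5 of 10 members fell (ITGA2, ITGA6, ITGAV, ITGB1 and ITGB4) and none rose. Of all genes 26.9% were called then, 13.4% higher and 13.6% lower. At 4 h 4 fell (ITGA2, ITGA3, ITGA6 and ITGB4) and ITGB6 rose, against 15.1% of genes called, 6.74% higher and 8.39% lower. At 8 h 9 fell, all but ITGB6, against 44.3% called, 20.6% higher and 23.7% lower. At 24 h 7 fell (ITGA2, ITGA5, ITGA6, ITGAV, ITGB1, ITGB4 and ITGB5) and ITGB6 rose, against 27.5% called, 13.7% higher and 13.8% lower. At 48 h ITGB6 alone was called, as higher, against 9.98% called, 5.52% higher and 4.46% lower.

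The IK-595 and vehicle tumors did not overlap for 8 members at 2 h (1 higher and 7 lower), against 32.5% of all genes in either direction. At 4 h this held for 1 higher and 4 lower members, against 19.4% of genes, and at 8 h for 1 higher and 9 lower, against 44.2%. At 24 h it held for 1 higher and 7 lower, against 25.3%, and at 48 h for 1 higher, against 19.4%. Overlap here was judged on log2 CPM, and ITGB6 was the higher member each time. In order of time, the median log2 fold change over the members was -0.67, -0.55, -1.23, -0.96 and -0.28. Over all genes tested it was 0.05, 0.03, 0.07, 0.06 and -0.01. An F test over the 5 times passed for 9 of the 10 members, against 49.8% of all genes. ITGB8 was the exception, at an edgeR adjusted p of 0.0634. With 2 h tumor 1 and 4 h tumor 2 left out together, the counts of members called in order of time were 7, 6, 10, 9 and 1, and all 10 passed the F test. With a fibroblast marker covariate 8 members were called at 2 h and 8 at 4 h.

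**Figure D2:**
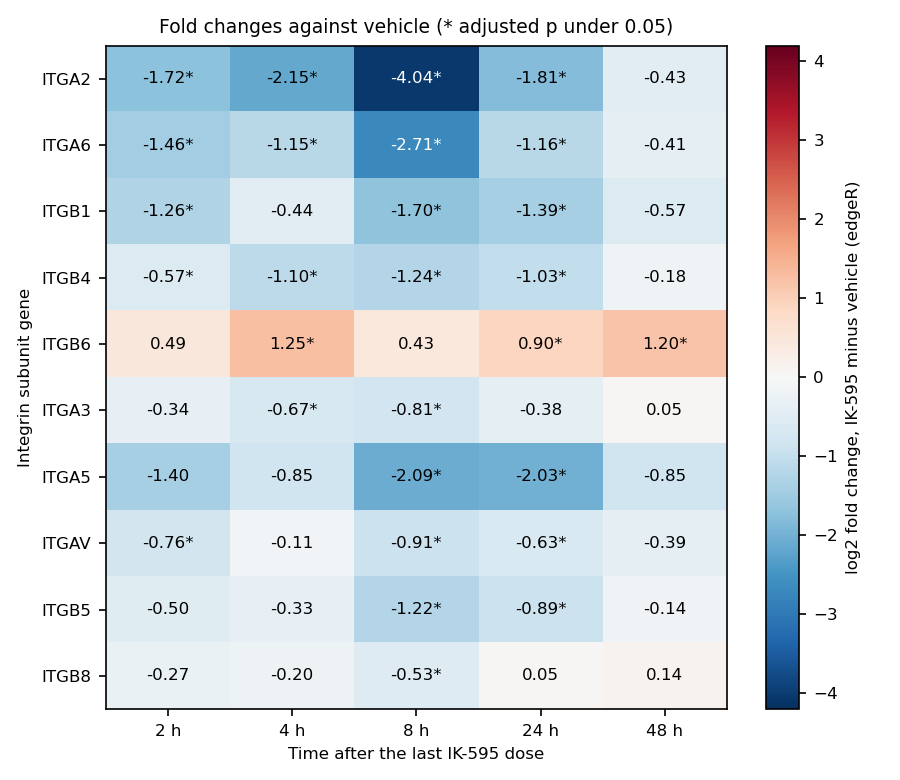
Log2 fold change of each integrin subunit gene (rows) against vehicle at each time (columns), from edgeR with 4 tumors per group, with an asterisk where the adjusted p was under 0.05. The 8 h column holds 9 lower members, with ITGA2 at -4.04 and ITGA6 at -2.71, while the ITGB6 row is positive at every time.

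ITGA2, the collagen-binding alpha chain, fell furthest of the 10 at 2, 4 and 8 h. Its level in the 4 vehicle tumors was 188, 246, 494 and 208 CPM. It was 117, 70, 77.7 and 81.1 CPM at 2 h, then 40, 60.7, 95.2 and 60.6 CPM at 4 h. At 8 h it was 21.8, 12.7, 20.8 and 13.5 CPM, a mean of 6.06% of the vehicle mean. From 2 to 8 h every IK-595 tumor lay below every vehicle tumor. The log2 fold change was -1.72 ± 0.35 (SE) at 2 h with an edgeR adjusted p of 0.00153, and -2.15 ± 0.36 at 4 h with an adjusted p of 0.000226. At 8 h it was -4.04 ± 0.39 with an edgeR adjusted p of 1.4e-07.

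Part of the ITGA2 message had returned by 24 h, when the tumors held 40.1, 84.2, 129 and 70.3 CPM. That was still below all vehicle tumors (-1.81 ± 0.35, edgeR adjusted p = 0.000861). At 48 h the values were 265, 181, 259.6 and 139.7 CPM, and the groups overlapped. The 48 h difference was not called (-0.43, 95% interval -1.14 to 0.28, edgeR adjusted p = 0.509), an interval that allows a fall of more than 1 log2 unit. Vehicle tumor 3 was highest for ITGA2, at 494 CPM against 188 to 246 CPM in the other vehicle tumors, and it raises the vehicle mean. On leaving out 1 tumor the 48 h value ranged from -0.57 to -0.02. The 4 calls from 2 to 24 h were kept on leaving out any tumor of the groups compared, with values of -4.18 to -3.63 at 8 h.

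ITGA6, the laminin-binding alpha chain shared by ITGB1 and ITGB4, followed a similar course from a higher level. Vehicle tumors held 708, 704, 569 and 562 CPM. The IK-595 tumors held 324, 199, 238 and 165 CPM at 2 h and 240.1, 321, 269.6 and 315 CPM at 4 h. At 8 h they held 141, 89.4, 85.3 and 73.3 CPM, a mean of 15.3% of the vehicle mean. All of these lay below all vehicle tumors, and so did the 24 h tumors at 171, 279, 451 and 239.7 CPM. At 48 h, with 617, 367, 611 and 325 CPM, the groups overlapped.

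The log2 fold change of ITGA6 was -1.46 ± 0.27 at 2 h (edgeR adjusted p = 0.000705) and -1.15 ± 0.27 at 4 h (edgeR adjusted p = 0.00493). It was -2.71 ± 0.29 at 8 h (edgeR adjusted p = 2.76e-07) and -1.16 ± 0.27 at 24 h (edgeR adjusted p = 0.00331). The 48 h difference of -0.41 was not called (95% interval -0.96 to 0.15, edgeR adjusted p = 0.398). The 4 called falls were kept on leaving out any tumor compared. An antisense gene at the ITGA6 locus, PDK1-AS1, held 1.4275% as many counts as ITGA6.

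**Figure D3:**
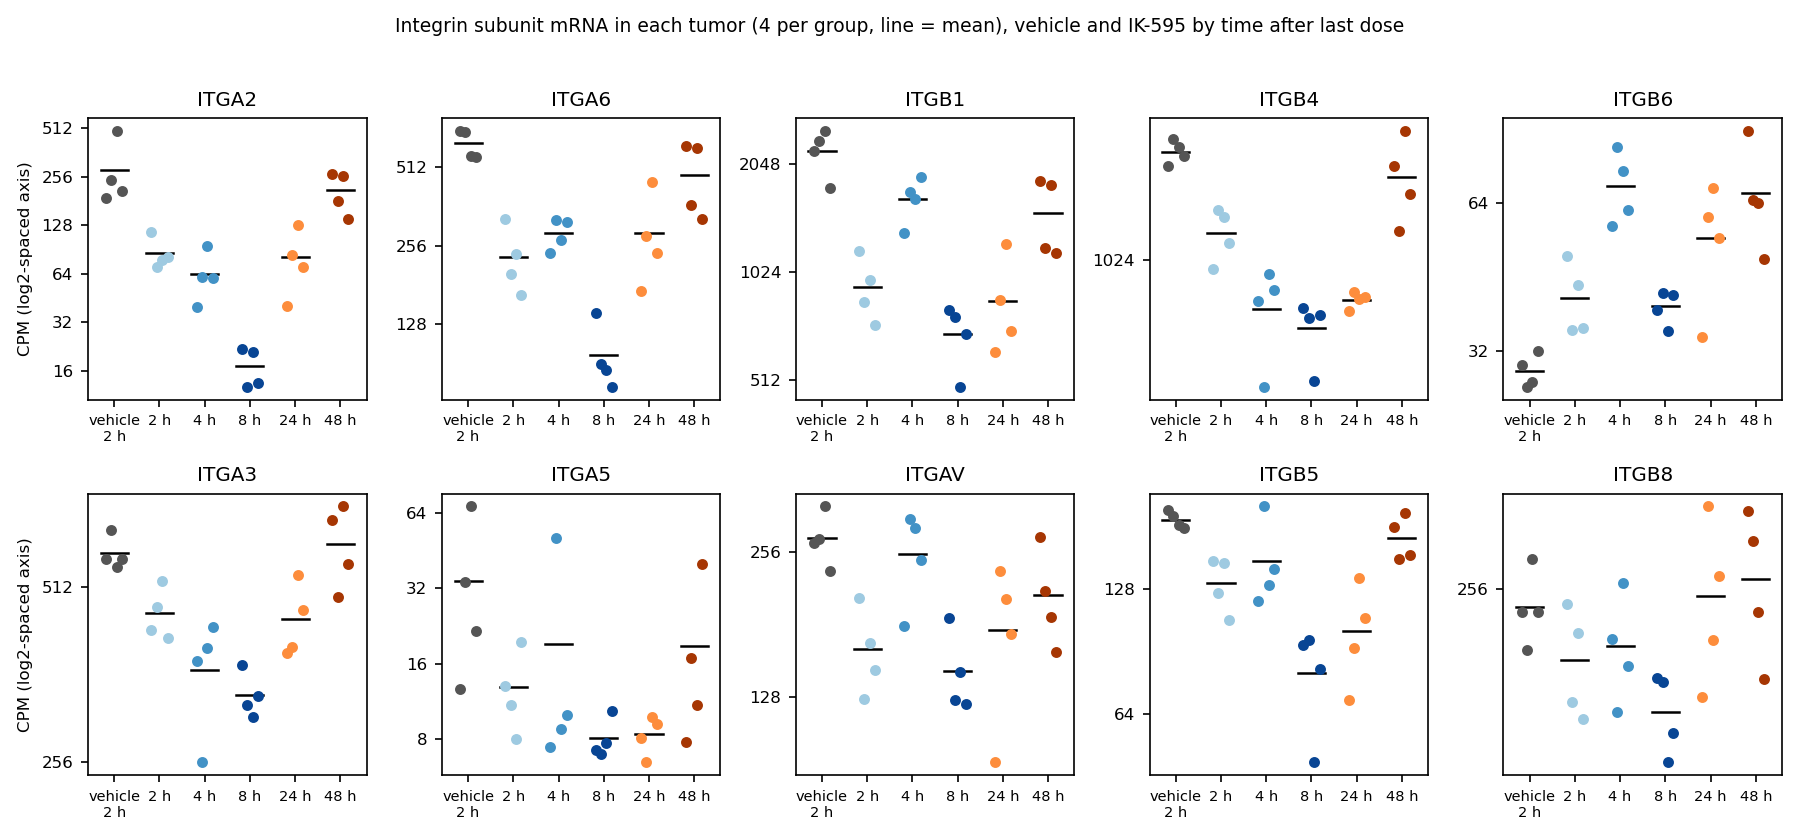
CPM of each integrin subunit gene in every tumor (log2-spaced axes that differ between panels), 4 points per group with a line at the group mean. ITGA2 and ITGA6 sit lowest at 8 h (12.7 to 21.8 and 73.3 to 141 CPM), and in the ITGB6 panel all IK-595 tumors (34.2 to 89.8 CPM) lie above all vehicle tumors (27.1 to 32.0 CPM).

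ITGB1, the common beta chain, was called lower at 2 and 8 h but not at 4 h, while ITGA2 and ITGA6 were called at each of these times. ITGAV had the same calls as ITGB1 at these times. Vehicle tumors held 2235, 2379, 2540.1 and 1756 CPM, and 2 h tumors 1172, 844, 970.4 and 727 CPM, with no overlap. At 4 h the values were 1314, 1712, 1634 and 1889.9 CPM, which overlapped with vehicle. At 8 h they were 802, 767, 489.7 and 689 CPM, again below all vehicle tumors. The log2 fold change was -1.26 ± 0.22 at 2 h (edgeR adjusted p = 0.000362), -0.44 ± 0.22 at 4 h (adjusted p = 0.173) and -1.70 ± 0.22 at 8 h (adjusted p = 3.55e-06).

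The 24 h tumors held 611, 857, 1227 and 702 CPM of ITGB1, also with no overlap (-1.39 ± 0.22, edgeR adjusted p = 0.000105). At 48 h the range was 1157 to 1841 CPM, overlapping with vehicle, and the difference of -0.57 ± 0.22 was not called (edgeR adjusted p = 0.101). With the fibroblast covariate the 4 h difference was -0.61 and was called (edgeR adjusted p = 0.0417). ITGB1P1, a processed pseudogene of ITGB1, was assigned 0 to 6.16% as many counts as ITGB1 in the same tumor and shares reads with it, so the split between them is uncertain.

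ITGB4, the hemidesmosome beta chain, fell at 2, 4, 8 and 24 h. Vehicle tumors held 1612, 1839.7, 1771 and 1693 CPM, and 2 h tumors 977, 1304, 1262 and 1111 CPM. The 4 h tumors held 838, 553, 954 and 884 CPM and the 8 h tumors 812, 772, 569 and 785 CPM. The 24 h tumors were closest together, at 797, 875, 848 and 856 CPM. At all of these times the groups did not overlap. The log2 fold change was -0.57 ± 0.16 at 2 h (edgeR adjusted p = 0.0125), -1.10 ± 0.16 at 4 h (adjusted p = 4.86e-05), -1.24 ± 0.16 at 8 h (adjusted p = 4.25e-06) and -1.03 ± 0.16 at 24 h (adjusted p = 0.000103).

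By 48 h ITGB4 stood at 1178 to 1914 CPM, overlapping with vehicle (-0.18 ± 0.16, edgeR adjusted p = 0.573). The 2 h call was lost on the log2(TPM + 1) scale, where limma gave -0.25 (adjusted p = 0.379). GALK1, which overlaps ITGB4 on the other strand, held 2.4144% as many counts as ITGB4.

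Of the other ITGB1 partners, ITGA3 had values nearer to 0 than ITGA2 and ITGA6 at every time, a difference that was not tested. This laminin receptor chain held 556 to 642 CPM in vehicle tumors and 256 to 437 CPM at 4 h. It held 306 to 376 CPM at 8 h, and neither range overlapped with vehicle. It fell at 4 h (-0.67 ± 0.15, edgeR adjusted p = 0.00337) and at 8 h (-0.81 ± 0.15, edgeR adjusted p = 0.000175). Its values at the other times were -0.34 at 2 h (edgeR adjusted p = 0.0951), -0.38 at 24 h (adjusted p = 0.0642) and 0.05 at 48 h (adjusted p = 0.892).

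ITGA5, the fibronectin receptor chain, was scarce and uneven. Vehicle tumors held 12.6, 33.9, 68.2 and 21.7 CPM, with no tumor close to the highest. At 8 h the values were 7.18, 6.94, 7.66 and 10.3 CPM and at 24 h 8.04, 6.44, 9.77 and 9.18 CPM, all below vehicle. ITGA5 fell at 8 h (-2.09 ± 0.62, edgeR adjusted p = 0.0102) and at 24 h (-2.03 ± 0.62, edgeR adjusted p = 0.0194). Without vehicle tumor 3 neither call held, at -1.50 (edgeR adjusted p = 0.0575) and -1.45 (edgeR adjusted p = 0.0909). The 24 h call was also lost without 24 h tumor 1 or tumor 2, at edgeR adjusted p of 0.0504 and 0.0539, and on both TPM scales (limma adjusted p of 0.0837 and 0.0904).

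At 4 h ITGA5 depended on 1 tumor. The values were 7.40, 50.9, 8.75 and 9.93 CPM, and the high value belonged to 4 h tumor 2, the tumor with 31828 CPM of fibroblast markers. The 4 h difference was -0.85 ± 0.59 (edgeR adjusted p = 0.363) with that tumor and -1.94 (edgeR adjusted p = 0.0147) without it. With the fibroblast covariate it was -1.80 (edgeR adjusted p = 0.0341).

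Among the ITGAV group of receptors, ITGB6 rose while the others fell or were not called. ITGB6 encodes the epithelial beta chain of the receptor that activates latent TGF-beta. Vehicle tumors held 30.0, 27.1, 27.7 and 32.0 CPM. The 2 h tumors held 49.9, 35.3, 43.6 and 35.7 CPM, and the 4 h tumors 57.6, 83.3, 74.3 and 61.9 CPM. The 8 h tumors held 38.9, 42.1, 35.2 and 41.7 CPM. The lowest of these 12 values was above the highest vehicle value. At 24 h the values were 34.2, 59.9, 68.7 and 54.4 CPM and at 48 h 89.8, 65.0, 64.2 and 49.2 CPM, again with no overlap. In CPM, 20 of 20 IK-595 tumors stood above the 4 vehicle tumors. In TPM the separation held at 4 and 48 h only. Vehicle tumors held 8.19 to 9.6 TPM, against 9.07 to 13.7 at 2 h, 8.67 to 10.8 at 8 h and 7.08 to 21.5 at 24 h.

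The log2 fold change of ITGB6 was 1.25 ± 0.19 at 4 h (edgeR adjusted p = 5.49e-05), 0.90 ± 0.19 at 24 h (adjusted p = 0.00129) and 1.2 ± 0.19 at 48 h (adjusted p = 0.000321). These 3 rises were kept on leaving out any tumor compared. At 2 h it was 0.49 ± 0.19 (edgeR adjusted p = 0.0512) and at 8 h 0.43 ± 0.19 (edgeR adjusted p = 0.0619), so neither passed. Both did pass with DESeq2, at adjusted p of 0.042 and 0.0441. Over the settings tried, the 2 h value ranged from 0.21 to 0.57 and the 8 h value from 0.14 to 0.58. At 48 h, when the MAPK genes averaged 6.15 log2 CPM against 6.52 in vehicle tumors, ITGB6 held 229.6% of its vehicle mean. The carcinoma epithelium markers also summed above every vehicle tumor at that time (13922 to 18533 against 9918 to 13008 CPM), and their part in the ITGB6 value was not tested.

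ITGAV, the alpha chain of the group, held 268, 273, 319 and 234 CPM in vehicle tumors and 206, 127, 166 and 146 CPM at 2 h, without overlap. At 4 h, with 180.2 to 300.3 CPM, it overlapped with vehicle, and at 8 h, with 124 to 187 CPM, it did not. It fell at 2 h (-0.76 ± 0.23, edgeR adjusted p = 0.0181), at 8 h (-0.91 ± 0.23, edgeR adjusted p = 0.00293) and at 24 h (-0.63 ± 0.23, edgeR adjusted p = 0.0448). At 4 h it was -0.11 (edgeR adjusted p = 0.803) and at 48 h -0.39 (adjusted p = 0.339). The 2 h call was lost without vehicle tumor 3, 2 h tumor 2 or 2 h tumor 4, at adjusted p of 0.0529, 0.0647 and 0.0546. The 24 h groups overlapped, and that call was lost without any 1 of the 4 vehicle tumors or without 24 h tumor 1 or 4 (adjusted p of 0.0506 to 0.154).

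ITGB5, the vitronectin receptor beta chain, held 179 to 198 CPM in vehicle tumors and 49.1 to 96.7 CPM at 8 h. At 24 h it held 69.4 to 136 CPM. It did not overlap with vehicle at either time, and it fell by 1.22 on the log2 scale at 8 h (edgeR adjusted p = 5.72e-05) and by 0.89 at 24 h (edgeR adjusted p = 0.00269). The other values were -0.50 at 2 h (edgeR adjusted p = 0.0668), -0.33 at 4 h (adjusted p = 0.28) and -0.14 at 48 h (adjusted p = 0.742). The 2 h groups did not overlap, and with the fibroblast covariate the 2 h and 4 h values of -0.50 and -0.59 were called (edgeR adjusted p = 0.0172 and 0.0144).

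ITGB8, the other beta chain that activates TGF-beta, was called at 8 h only. It held 207 to 284 CPM in vehicle tumors, 140.2 to 188 CPM at 8 h and 187 to 335 CPM at 48 h. Its fall at 8 h (-0.53 ± 0.20, edgeR adjusted p = 0.0367) was lost without vehicle tumor 1, 3 or 4 or without 8 h tumor 3 or 4 (edgeR adjusted p of 0.0674 to 0.123), and with upper-quartile scaling (-0.39, edgeR adjusted p = 0.112). Its values were -0.27 at 2 h (edgeR adjusted p = 0.335), -0.20 at 4 h (adjusted p = 0.548), 0.05 at 24 h (adjusted p = 0.871) and 0.14 at 48 h (adjusted p = 0.752). The 48 h interval of -0.28 to 0.55 excludes a rise of 1 log2 unit.

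Since integrins work as pairs, the alpha and beta messages of 8 known pairs were also compared as a log2 ratio within each tumor, which does not depend on the scaling of libraries. With 4 against 4 tumors the exact two-sided permutation test cannot give a p below 0.0286. None of the 40 comparisons with vehicle passed after adjustment over the 40, and the lowest adjusted p was 0.0672. After that adjustment a fully separated pair can pass only if enough of the other tests also reach 0.0286. A miss is therefore no sign that a ratio stayed the same. In 17 of them the tumors did not overlap and the exact p was 0.0286.

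The ratio of ITGAV to ITGB6 had the widest gap between IK-595 and vehicle tumors over the 5 times together, although at no single time did it pass the adjusted threshold. Its log2 value in vehicle tumors was 3.15, 3.33, 3.52 and 2.86. In the IK-595 tumors it lay between 1.45 and 2.26, so 20 of 20 were below the lowest vehicle tumor. The differences from vehicle were -1.26 ± 0.15 (SE), -1.36 ± 0.16, -1.36 ± 0.22, -1.55 ± 0.18 and -1.57 ± 0.14 in order of time (exact permutation p = 0.0286 and adjusted p = 0.0672 at each). A test over all 20 IK-595 tumors against the 4 vehicle tumors was added after these values were seen. The difference was -1.42 (two-sided exact permutation p = 0.000188, the smallest this test can give, adjusted p = 0.00151 over 8 pairs). The separation already seen fixed that p in advance, so it adds no support. The test also pools 5 times against vehicle tumors sampled at 2 h only. The 7 other pairs did not pass that test (adjusted p of 0.16 to 0.843). Without 4 h tumor 2 the ratios of ITGA3 to ITGB1 (0.73) and of ITGAV to ITGB8 (-0.47) were each at an exact adjusted p of 0.0163. With that tumor kept, each was at an exact adjusted p of 0.16. The tumor held the lowest ITGA3 to ITGB1 ratio (-2.74) and the highest ITGAV to ITGB8 ratio (0.85). These 2 passes rest on its removal from a test added after the values were seen, so they add no support.

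For ITGA2 and its partner ITGB1 the ratio did not pass at any time after adjustment, although the tumors separated at 4 and 8 h. The log2 ratio of ITGA2 to ITGB1 was -3.57, -3.27, -2.36 and -3.08 in vehicle tumors and -5.03, -4.82, -4.10 and -4.96 at 4 h. At 8 h it was -5.19, -5.90, -4.55 and -5.66. Neither time overlapped with vehicle, and the differences were -1.66 ± 0.33 and -2.26 ± 0.39 (exact permutation p = 0.0286, adjusted p = 0.0672 at each). At 2, 24 and 48 h the differences were -0.36, -0.39 and 0.23, with overlap.

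For ITGA6 the difference in its ratio to ITGB1 was -0.71 ± 0.13 at 4 h and -1.04 ± 0.22 at 8 h, both without overlap (exact permutation p = 0.0286, adjusted p = 0.0672). Its ratio to ITGB4 differed by -1.50 ± 0.22 at 8 h without overlap (exact permutation p = 0.0286, adjusted p = 0.0672) and by -0.02 ± 0.26 at 4 h (exact p = 0.943). By group mean at 4 h, then, ITGA6 and ITGB4 stood at like fractions of vehicle (45.1% and 46.7%) and ITGB1 at 73.5%. The small 4 h difference between ITGA6 and ITGB4 depended on 4 h tumor 2, the tumor rich in fibroblast markers. Its log2 ratio was -0.78, against -1.80, -1.82 and -1.49 in 4 h tumors 1, 3 and 4. Vehicle tumors held -1.64 to -1.19. The ratio of ITGA3 to ITGB1 had positive differences of 0.93, 0.90, 1.04 and 0.63 at 2, 8, 24 and 48 h, each without overlap. At 4 h the difference was -0.25, with 4 h tumor 2 at -2.74 and the other 4 h tumors at -2.11 to -1.78. The ratio of ITGAV to ITGB8 had differences without overlap at 2 h (-0.50), 24 h (-0.72) and 48 h (-0.52). Each of these differences without overlap was at an exact permutation p of 0.0286 and an adjusted p of 0.0672. The ratios of ITGA5 to ITGB1 and of ITGAV to ITGB5 overlapped with vehicle at all 5 times.

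**Figure D4:**
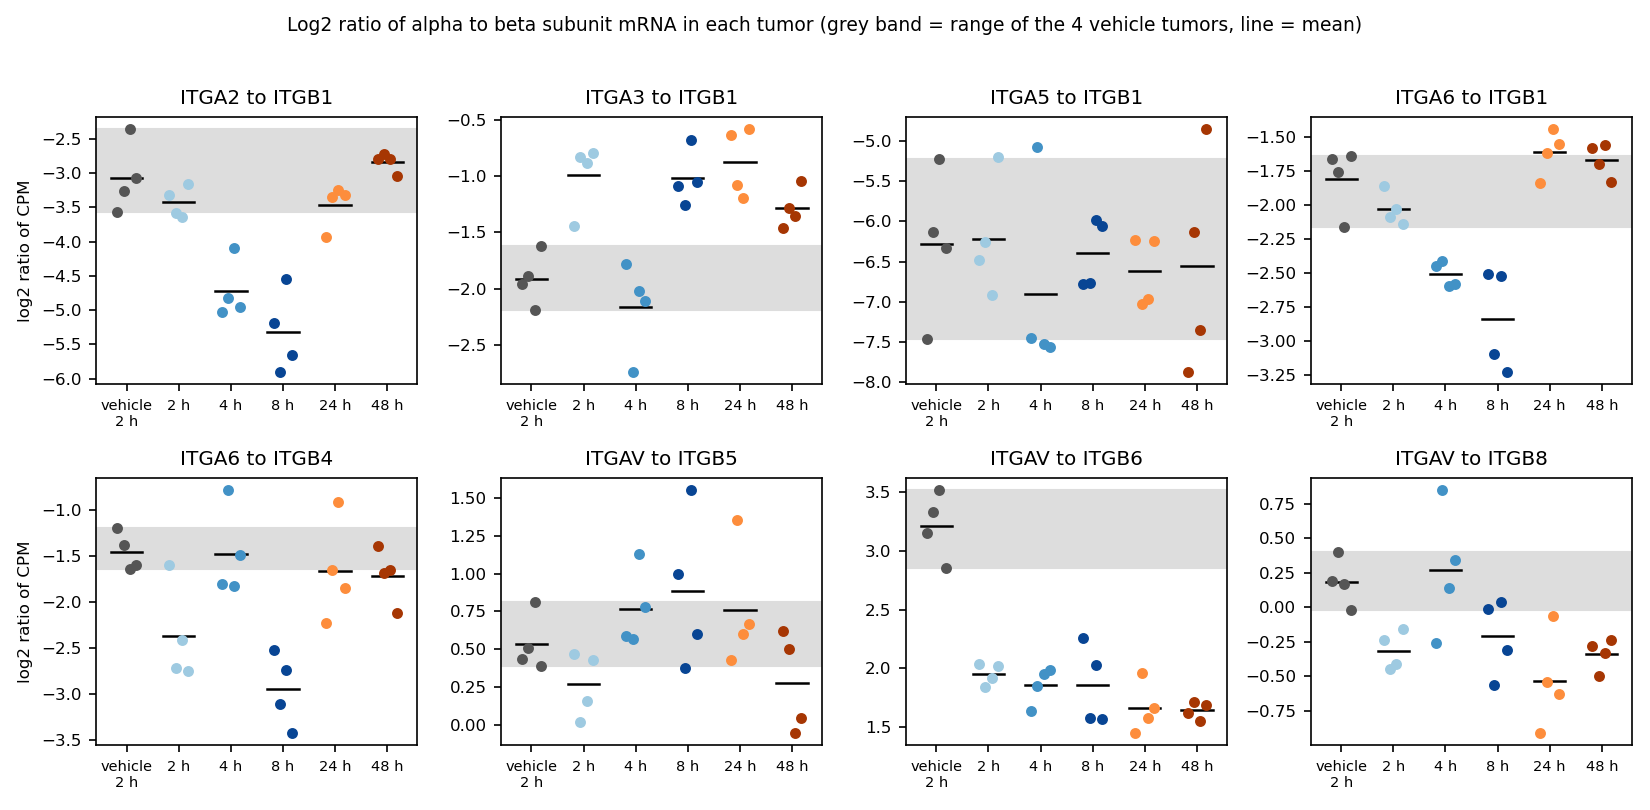
Log2 ratio of alpha to beta subunit CPM in each tumor for 8 integrin pairs, with a line at each group mean and a grey band over the range of the 4 vehicle tumors (axes differ between panels). The ITGAV to ITGB6 ratio lies below the vehicle band in all 20 IK-595 tumors (1.45 to 2.26 against 2.86 to 3.52), and the ratio of ITGA2 to ITGB1 leaves its band in all 4 h and 8 h tumors.

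The IK-595 groups were next compared with each other along the dosing interval, in the same fit over 24 tumors, so the vehicle tumors enter the scaling and the estimate of the spread but not the fold changes. From 2 to 4 h ITGB1 (0.82 ± 0.22, edgeR adjusted p = 0.0161) and ITGB6 (0.75 ± 0.19, edgeR adjusted p = 0.011) rose and ITGB4 fell (-0.53 ± 0.16, edgeR adjusted p = 0.032), 3 of 10 members against 15.9% of genes. The ITGB1 call was lost without 2 h tumor 2 or 4 (adjusted p of 0.0529 and 0.0704). The ITGB4 call was lost without 2 h tumor 2, 3 or 4 or 4 h tumor 2 or 4 (adjusted p of 0.0696 to 0.139). Without 2 h tumor 2, and without 2 h tumor 4, 1 member was called.

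From 4 to 8 h 6 of 10 members fell, against 27.1% of genes called and 15.5% lower. They were ITGA2 (-1.89 ± 0.36, edgeR adjusted p = 0.0018), ITGA6 (-1.56 ± 0.27, adjusted p = 0.00126), ITGB1 (-1.25 ± 0.22, adjusted p = 0.00126), ITGB5 (-0.89 ± 0.20, adjusted p = 0.00403), ITGAV (-0.81 ± 0.23, adjusted p = 0.0143) and ITGB6 (-0.81 ± 0.19, adjusted p = 0.00409). ITGB4, already low at 4 h, differed by -0.14 (edgeR adjusted p = 0.558). These 6 calls were made on leaving out any tumor of either group.

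From 8 to 24 h ITGA2 (2.23 ± 0.36, edgeR adjusted p = 0.000498) and ITGA6 (1.55 ± 0.27, edgeR adjusted p = 0.000885) rose, 2 of 10 members against 6.89% of genes called and 5.3% higher. The other 8 members had values of 0.06 to 0.58 and were not called, and without 24 h tumor 1, where 31.41% of counts were mitochondrial, 5 members were called. From 24 to 48 h ITGA2 (1.38 ± 0.35, edgeR adjusted p = 0.0281), ITGB1 (0.82 ± 0.22, adjusted p = 0.0347), ITGB4 (0.86 ± 0.16, adjusted p = 0.0047) and ITGB5 (0.74 ± 0.20, adjusted p = 0.0391) rose, against 4.07% of genes called and 2.47% higher. ITGB4 alone of these was called without 24 h tumor 1, 2 or 4 or without 48 h tumor 1 or 3. None was called when only those groups entered the fit or on the TPM scales.

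The end of the dosing interval was set against the 2 h group. ITGA6 (-1.05 ± 0.27, edgeR adjusted p = 0.0362) and ITGB6 (-0.71 ± 0.19, edgeR adjusted p = 0.04) were lower at 2 h than at 48 h, 2 of 10 members against 2.49% of genes called and 1.92% lower. ITGA2 differed by -1.29 ± 0.35 and missed the threshold (edgeR adjusted p = 0.0514), but it was called in 9 of 13 other settings, among them the replicate block (-1.24, edgeR adjusted p = 0.0226), only the groups compared (edgeR adjusted p = 0.0138) and DESeq2 (adjusted p = 0.00433). It was also called without 2 h tumor 1 (-1.49, edgeR adjusted p = 0.041) or without 48 h tumor 4 (-1.45, edgeR adjusted p = 0.0332). No member was called without 2 h tumor 2, 3 or 4 or without 48 h tumor 1 or 3, and 1 was called without 48 h tumor 2.

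The MAPK output genes and the members were set side by side between 4 and 8 h, and a difference between them was not tested. The mean of the MAPK genes was lowest in those groups (2.96 and 2.74 log2 CPM), with 1 of the 10 higher and 3 lower at 8 h than at 4 h, against 27.1% of all genes called and 15.5% lower. ITGA2 fell between the same groups from 64.1 ± 22.9 to 17.2 ± 4.77 CPM and ITGA6 from 287 ± 38.7 to 97.3 ± 30.0 CPM (SD, n = 4). From 8 to 24 h 9 of the 10 MAPK genes rose, and so did ITGA2 and ITGA6.

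**Figure D5:**
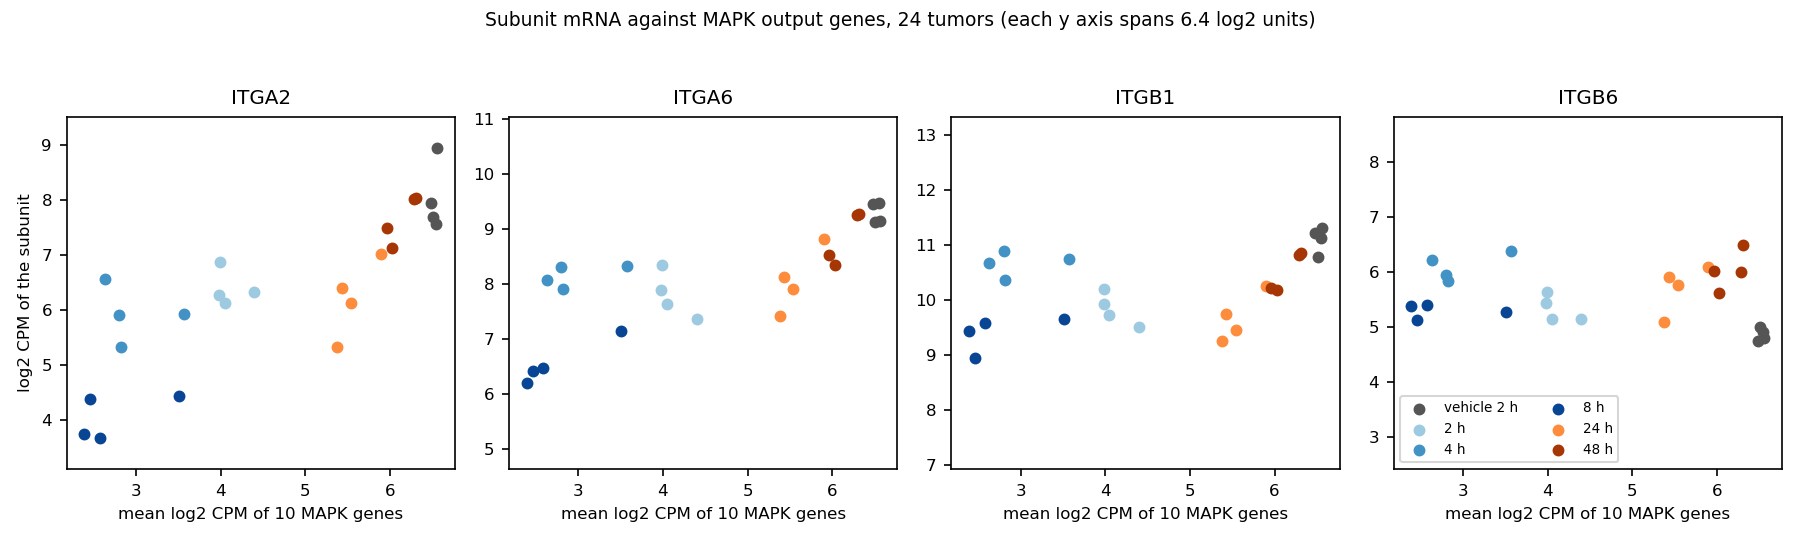
Log2 CPM of ITGA2, ITGA6, ITGB1 and ITGB6 against the mean log2 CPM of 10 MAPK output genes in 24 tumors, colored by group, with y axes of equal span. The 4 h and 8 h tumors share the low end of the x axis (group means 2.96 and 2.74) but differ in ITGA2, ITGA6, ITGB1 and ITGB6. Vehicle tumors are lowest for ITGB6.

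Likeness among the members was described by Pearson r of log2 CPM over the 24 tumors, which share treatment groups and depth, so r reflects the groups as well. ITGA2 and ITGA6 gave 0.93, ITGA3 and ITGB4 0.91, and ITGB1 and ITGB5 0.89. ITGB6 gave -0.28 to 0.35 with the 9 others. Of 10438 genes with a mean log2 CPM of at least 3, those most like ITGA2 were ANTXR2 (0.984), SLC38A1 (0.970), CDCP1 (0.969), LPGAT1 (0.968) and FEZ2 (0.965). ANTXR2 encodes an anthrax toxin receptor that binds matrix proteins, SLC38A1 a glutamine transporter and CDCP1 a transmembrane protein of epithelial cells.

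The genes most like ITGA6 were MET (0.982), BMS1 (0.971), WDR3 (0.971), CLMP (0.969) and PAFAH1B2 (0.967). MET is the receptor for hepatocyte growth factor, BMS1 and WDR3 act in ribosome assembly, and CLMP is a junction protein. MET had a mean log2 CPM of 9.29 in vehicle tumors, 6.87 at 8 h and 8.92 at 48 h. Ranked on the 6 group means in place of the 24 tumors, 2 of the 5 genes most like ITGA2 and 0 of the 5 most like ITGA6 were the same, so the ranking depends on this choice.

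Genes that work with these integrins were counted from lists written for this purpose, with earlier results of these data known. Of 10 laminin and hemidesmosome genes, 5 fell and 2 rose at 2 h, 3 fell and 1 rose at 4 h, 7 fell and 2 rose at 8 h, 6 fell and 2 rose at 24 h, and 1 rose at 48 h. Of all genes 13.6%, 8.39%, 23.7%, 13.8% and 4.46% were lower at those times, and 13.4%, 6.74%, 20.6%, 13.7% and 5.52% higher. The list medians of the log2 fold change were -0.53, -0.21, -0.85, -0.69 and 0. LAMA3, a laminin alpha chain of epithelial basement membranes, was at -1.05 ± 0.21 at 2 h and -1.25 ± 0.21 at 8 h (edgeR adjusted p = 0.00117 and 6.89e-05). PLEC, the hemidesmosome linker plectin, was at -0.96 ± 0.17 at 4 h (edgeR adjusted p = 0.000278), and LAMB2 rose by 0.75 ± 0.12 at 24 h (edgeR adjusted p = 0.000141).

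Of 28 integrin activators and focal adhesion genes, 9, 8, 16, 9 and 2 fell in order of time, against the same shares of all genes lower. The 48 h count is near its background of 4.46%. The list had 0, 1, 0, 1 and 0 genes higher, with medians of -0.26, -0.16, -0.48, -0.33 and -0.07. FERMT1, the epithelial kindlin that activates integrins through their beta tails, fell by 1.68 at 2 h, by 3.33 at 8 h and by 1.64 at 24 h on the log2 scale (edgeR adjusted p = 0.000147, 1.35e-08 and 0.000127). PXN, the scaffold paxillin, was at -1.08 ± 0.12 and TNS4, a tensin that binds beta tails, at -3.04 ± 0.41 at 4 h (edgeR adjusted p = 1.07e-06 and 2.01e-05). Of 6 integrin inactivators, 2 rose and 1 fell at 8 h, near the 44.3% of all genes called then. At each other time at most 1 rose and 1 fell. The shares of all genes called at 2, 4, 24 and 48 h were 26.9%, 15.1%, 27.5% and 9.98%.

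Shares over all genes for the next lists are those given above for each time. Of 14 other matrix ligands tested, 3 fell and 1 rose at 2 h, 1 fell and 1 rose at 4 h, 6 fell and 1 rose at 8 h, 4 fell and 1 rose at 24 h, and 1 rose at 48 h. At 2 h (4 of 14, against 26.9% of genes) and at 4 h (2 of 14, against 15.1%) the count was near that of all genes. In both directions together the counts at 8 h and 48 h were also near those of all genes (44.3% and 9.98%). The 6 that fell at 8 h stood against 23.7% of genes lower. CCN1, a matrix-associated ligand of ITGAV receptors, was at -2.28 ± 0.43 at 2 h and -2.44 ± 0.43 at 8 h (edgeR adjusted p = 0.000875 and 0.000155). NPNT, nephronectin, rose by 1.15 ± 0.17 at 24 h (edgeR adjusted p = 5.54e-05). Of 8 tetraspanins, which hold integrins in membrane domains, 3 rose at 2 h, 1 rose and 1 fell at 4 h, 1 rose and 2 fell at 8 h and again at 24 h, and 2 rose at 48 h. Their 8 h count was not above the 44.3% of all genes called. At 2 h TSPAN1 rose by 1.14 ± 0.22 and CD151, the partner of ITGA3 and ITGA6, by 0.37 ± 0.12 (edgeR adjusted p = 0.000774 and 0.0226).

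Of 7 latent TGF-beta genes tested, 2 fell at 2 h, 2 rose and 1 fell at 4 h, 2 fell at 8 h, 1 fell at 24 h and none was called at 48 h. The 2 h count was near the 26.9% of all genes called. The counts at 8 and 24 h were below the 44.3% and 27.5% called. At 4 h TGFB1 was at -0.90 ± 0.21 and TGFB3 at 2.18 ± 0.55 (edgeR adjusted p = 0.00424 and 0.00875). Of 12 other integrin genes tested, out of 17 listed, 1 rose and 2 fell at 2 h, 3 rose and 1 fell at 4 h, 2 rose and 2 fell at 8 h, 1 rose and 2 fell at 24 h, and 1 fell at 48 h. The counts at 2, 24 and 48 h were near the 26.9%, 27.5% and 9.98% of all genes called. The 8 h count was below the 44.3% called. ITGA10, a collagen receptor chain, was at -1.82 ± 0.37 at 4 h and -2.20 ± 0.38 at 8 h (edgeR adjusted p = 0.00141 and 8.89e-05). ITGA7, a laminin receptor chain of muscle, rose by 0.77 ± 0.17 at 4 h, 1.51 ± 0.17 at 8 h and 1.36 ± 0.17 at 24 h (edgeR adjusted p = 0.00306, 7.52e-07 and 1.27e-05). The summed CPM of those 17 listed genes was 79.9 to 152 in 23 tumors and 325 in 4 h tumor 2, the tumor rich in fibroblast markers. Muscle, fat and red cell markers had a median sum of 751 CPM at 8 h and 281 CPM at 24 h, against 98.6 CPM in vehicle tumors. The part of host cells in the values of these lists, ITGA7 among them, was not tested at any time.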

How the data were processed

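RNA of 24 tumors was sequenced after polyA selection, and groups follow the sample titles. The labels give 4 animals per group, so p values measure the spread between tumors of different animals. The authors deposited estimated counts and TPM values per gene. Salmon 0.14.1 is among the tools in the submitters' processing notes, which also list bcl2fastq 2.17 and FastQC 0.12.1, and the build there is GRCh38.p13. Whether counting used strand, which annotation it used and whether mouse reads were taken out is not given in the sources used here. Gene IDs were matched to GENCODE release 29, which placed 57972 of 60230 genes. The unmatched genes held 0.096% of counts. No tumors had identical columns.

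The members and lists were chosen with earlier results of these data known. Estimated counts were rounded, and filterByExpr kept 18242 genes. After TMM scaling, edgeR 4.0.16 (R 4.3.3) was run on the 24 tumors together with its robust quasi-likelihood test. Benjamini-Hochberg adjustment covered all genes in each comparison. An adjusted p with no tool named beside it is edgeR's, except for pair ratios, which were tested by exact two-sided permutation. The ± after a log2 fold change is its standard error, and log2 CPM used a prior count of 2. All 10 members are named. Genes of a list were eligible where at least 3 of the list were called at a time, taking up to 2 with the smallest adjusted p, and fewer are printed, since some are not reported here. ITGBL1 and ITGA11 were singled out after their values were seen. The edgeR step was checked on simulated data for 8 h against vehicle, and the check showed limits. Most planted changes of 1.5-fold and of 2-fold were missed, and most of 4-fold were recovered. The share of calls that fell on genes without a change was above the level set by the call threshold. A gene that was not called can therefore still have changed, and some calls can be false. Each result was recomputed with RLE or upper-quartile scaling, with different low-count filters, with DESeq2 1.42.0, limma-voom or limma 3.58.1 on log2(TPM + 1) and log2(TPM + 0.1), with a fibroblast covariate, with a replicate block, without mitochondrial genes, with only the groups compared, at an adjusted p under 0.01 and without each tumor. Leaving out 2 h tumor 1 and 4 h tumor 2 together, and testing ratios over 20 IK-595 tumors, were chosen after seeing the data.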

Additional observations from a re-analysis of the deposited data

Results flagged for a closer look

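Of 60 sets of 4 tumors checked for a member standing apart, 2 were singled out by the gap of 1 tumor to the others, and chance does this in about 1 of 20 sets. ITGA5 was 50.9 CPM in 4 h tumor 2 against 7.4 to 9.93 CPM in the 3 others. ITGB4 was 569 CPM in 8 h tumor 3 against 772 to 812 CPM in the 3 others.

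In 17 cases a member's effect differed between neighbouring or opposite times by the edgeR test of the difference itself. From 2 to 4 h these were ITGB1 (0.82 log2 units), ITGB4 (-0.53) and ITGB6 (0.75). From 4 to 8 h they were ITGA2 (-1.89), ITGA6 (-1.56), ITGAV (-0.81), ITGB1 (-1.25), ITGB5 (-0.89) and ITGB6 (-0.81). From 8 to 24 h they were ITGA2 (2.23) and ITGA6 (1.55), and from 24 to 48 h ITGA2 (1.38), ITGB1 (0.82), ITGB4 (0.86) and ITGB5 (0.74). At 2 h relative to 48 h they were ITGA6 (-1.05) and ITGB6 (-0.71).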

How the results depend on the processing

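Of 2200 recomputed member values, 2016 kept their direction and side of the threshold, 104 lost a call, 58 gained one and 22 changed sign. Counts of members called that moved by over 1.5 times were, at 2 h, 8 with the fibroblast covariate, 8 with only the groups compared and 3 at an adjusted p under 0.01. At 4 h it was 8 with the fibroblast covariate. For 4 h against 2 h it was 0 at an adjusted p under 0.01. For 48 h against 24 h it was 0 on log2(TPM + 1), 0 on log2(TPM + 0.1), 0 with only the groups compared and 1 at an adjusted p under 0.01. For 2 h against 48 h it was 4 with the fibroblast covariate, 4 with DESeq2, 1 with only the groups compared and 0 on both TPM scales and at an adjusted p under 0.01. With no adjustment 17 pair ratios differed. The causes were not tested. On leaving out 1 tumor the counts ranged from 4 to 5 at 2 h, 5 to 6 at 4 h, 7 to 9 at 8 h, 6 to 9 at 24 h and 1 to 1 at 48 h against vehicle. Between times they ranged from 1 to 4 (4 h against 2 h), 6 to 6 (8 h against 4 h), 2 to 5 (24 h against 8 h), 1 to 6 (48 h against 24 h) and 0 to 3 (2 h against 48 h). The F test ranged from 8 to 10 members, the 40 ratio tests from 0 to 0 (3 tumors against 4 cannot go below an exact p of 0.0571), and the ratio test over 20 IK-595 tumors from 1 to 3. The sign changes were all in values that were not called. ITGB8 at 24 h gave -0.02 without a filter and -0.14 and -0.15 on the TPM scales. ITGA5 for 4 h against 2 h gave -0.46 with the covariate, -0.06 and -0.13 on the TPM scales, -0.03 with limma-voom and -0.52 without 2 h tumor 1 and 4 h tumor 2 together. ITGB5 for the same times gave -0.09 with the covariate, and ITGB4 for 8 h against 4 h gave 0.18 on both TPM scales. On leaving out 1 tumor the values that changed sign ranged from -0.13 to 0.18 for ITGB8 at 24 h, -0.02 to 0.22 for ITGB8 at 4 h against 2 h, -0.04 to 0.27 for ITGB8 at 48 h against 24 h, -0.18 to 0.02 for ITGAV at 4 h and -0.03 to 0.14 for ITGA3 at 48 h. For ITGA5 they ranged from -0.54 to 0.85 at 4 h against 2 h, -0.04 to 0.2 at 24 h against 8 h and -0.83 to 0.12 at 2 h against 48 h. Against vehicle the median of all genes moved by up to -0.259 on the TPM scales and by 0.142 at 8 h with upper-quartile scaling. The replicate numbers do not pair the tumors (22 of 60 pairs correlated over 0.1, mean r -0.026). With a replicate block 5, 5, 9, 7 and 1 members were called against vehicle, and ITGAV lost its 24 h call (edgeR adjusted p = 0.058), ITGB5 its call for 48 h against 24 h (0.0588) and ITGB6 its call for 2 h against 48 h (0.066), while ITGA2 gained one for 2 h against 48 h (-1.24, edgeR adjusted p = 0.0226).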

Other observations

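ITGBL1, a secreted protein related to integrin beta chains, and ITGA11, a collagen receptor chain of fibroblasts, were higher than vehicle at 4 h, at 3.47 ± 0.93 and 2.90 ± 0.84 log2 units (edgeR adjusted p = 0.0148 and 0.0224). At 2, 8, 24 and 48 h their values lay between -0.64 and 0.36 and neither was called. The fibroblast markers of that group had a list median of 2.07 log2 units, 4 of 15 called higher, against 6.74% of all genes. Those markers summed to 31828 CPM in 4 h tumor 2 and to 949 to 2989 CPM in the other 4 h tumors. The 17 other integrin genes listed, ITGBL1 among them, summed to 325 CPM in 4 h tumor 2. Their median sum at 4 h was 90.9 CPM, against 90.7 CPM in vehicle tumors. The part of 4 h tumor 2 in these values was not tested.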
